A study of Mus musculus with 9 samples.

Results

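The genes described here encode 37 proteins of antibody gene diversification and DNA repair, read in splenic germinal center (GC) B cells of mice with intact or floxed Foxo1. They were chosen as a fixed list of symbols, and each gene was represented by its brightest probe set that carries a single symbol. All 37 had such a probe set, and all 37 lay at or above the array's median signal on all 9 arrays, so that none was lost to a filter on dim signals. They make up 37 of the 10331 genes that could be tested.

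Each of 3 genotypes was measured on 3 Affymetrix Mouse 430.2 arrays, and each array held cells of 1 animal per the sample labels (the series' design text speaks of pooled spleen cells). The genotypes were FOXO1+/+ (called WT), FOXO1f/+ (HET) and FOXO1f/f (KO), with 0, 1 and 2 floxed alleles. All mice, controls included, carried Cg1-Cre, a recombinase expressed from the IgG1 heavy chain locus and active in GC B cells. All were 10 weeks old, received sheep red blood cells, and were sampled on day 12 by sorting cells high for B220, CD95 and PNA. No batch, sex or litter was given in the sources used here. Unless stated otherwise, values are MAS5 signals on a linear scale, which rank arrays within a gene and not genes against each other. Changes are log2 differences of group means, and a change was called at a limma adjusted p under 0.05 over all genes tested.

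In a GC B cell a deaminase turns cytosine into uracil in the antibody genes. Base excision and mismatch repair enzymes process the uracil, error-prone polymerases fill the gaps and leave mutations, and breaks in switch regions are joined by non-homologous end joining to change the antibody class. The same enzymes guard the rest of the genome, where repair is mostly faithful. The deaminase itself is not among the 37 genes and was not analysed here.

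The targeted gene Foxo1 stood in KO at 19.0% and in HET at 65.4% of its WT mean. All 11 GC B cell markers on the array were above the array median on every array, but 4 of them were called in KO vs WT. Gcsam fell by 1.36 and Rgs13 by 0.25, while 2 rose, among them Fas, which encodes the sort marker CD95 (by 0.30). Below the array median on all 9 arrays were 4 of 9 T cell markers, 3 of 4 NK cell markers and 3 of 4 erythroid and platelet markers. The T cell marker Lat was above it on all 9, and the summed T cell signal was 174 to 294 in KO and 267 to 315 in WT. Of 7 plasma cell markers tested, 4 rose in KO and 3 were not called, among them Jchain and Xbp1. The summed signal of 8 was 25465 to 27893 in KO, 20375 to 21703 in WT and 21040 to 22536 in HET. Within it Slpi had 8000 to 9411 in KO and 3422 to 4418 in WT, and Jchain 10066 to 10918 and 10647 to 11274. For 12 myeloid markers, 5 of them below the array median on all 9 arrays, the sum was 1344 to 2030 in KO, 529 to 1257 in WT and 808 to 1937 in HET, with 3 of 7 tested members higher in KO. Summed dendritic cell markers were 1464 to 1825 in KO against 1178 to 1372 in WT (Sirpa rose by 0.65), and naive B cell markers 1416 to 1557 against 2145 to 2491 (Fcer2a fell by 0.76). Of 7 genes listed as stromal and endothelial markers, 4 were below the array median on all 9 arrays. The 7 summed to 3513 to 3564 in KO and 3908 to 4045 in WT. Of that sum Cr1l alone had 3091 to 3225 in KO and 3619 to 3721 in WT. The sum thus mainly reads Cr1l and is no measure of stromal cells. Pecam1 went the other way, with 213 to 270 in KO and 157 to 202 in WT. Mitosis genes moved too, as 8 of 29 fell in KO. The summed signal of the mitosis genes was 110309 to 113253 in KO against 121517 to 130326 in WT. For all these counts, the shares over all genes tested were 5.83% lower and 6.10% higher. The part of these shifts in the results on repair genes was not tested. In sorted bulk cells, fewer cells of a kind and less RNA per cell cannot be told apart.

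In KO cells 4 of the 37 genes were lower than in WT and 0 were higher. They were the base excision glycosylase gene Neil1, the lesion bypass polymerase gene Poli, and the end joining genes Xrcc6 and Lig4, with log2 changes between -0.28 and -0.46. Over all genes tested 5.83% were called lower and 6.10% higher, 11.9% in all, so that 4 of 37 (10.8%) is close to the background. At an unadjusted p under 0.05, 8 of the 37 were lower and 3 higher (29.7%), beside 25.7% of all genes (11.9% lower and 13.8% higher). The median change of the 37 was -0.002, beside 0.011 over all genes. The median size of the change, regardless of sign, was 0.138 among the 37 and 0.133 over all genes. The count of 4 came to 2 (Neil1 and Poli) without WT replicate 1, WT replicate 3 or KO replicate 3, and without KO replicate 1 it was 5, with 1 higher (Chek2). After centring on each array's median, which shifts the median KO vs WT change of all genes by -0.12, 9 of the 37 (24.3%) were called lower, beside 16.3% of all genes.

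**Figure D1:**
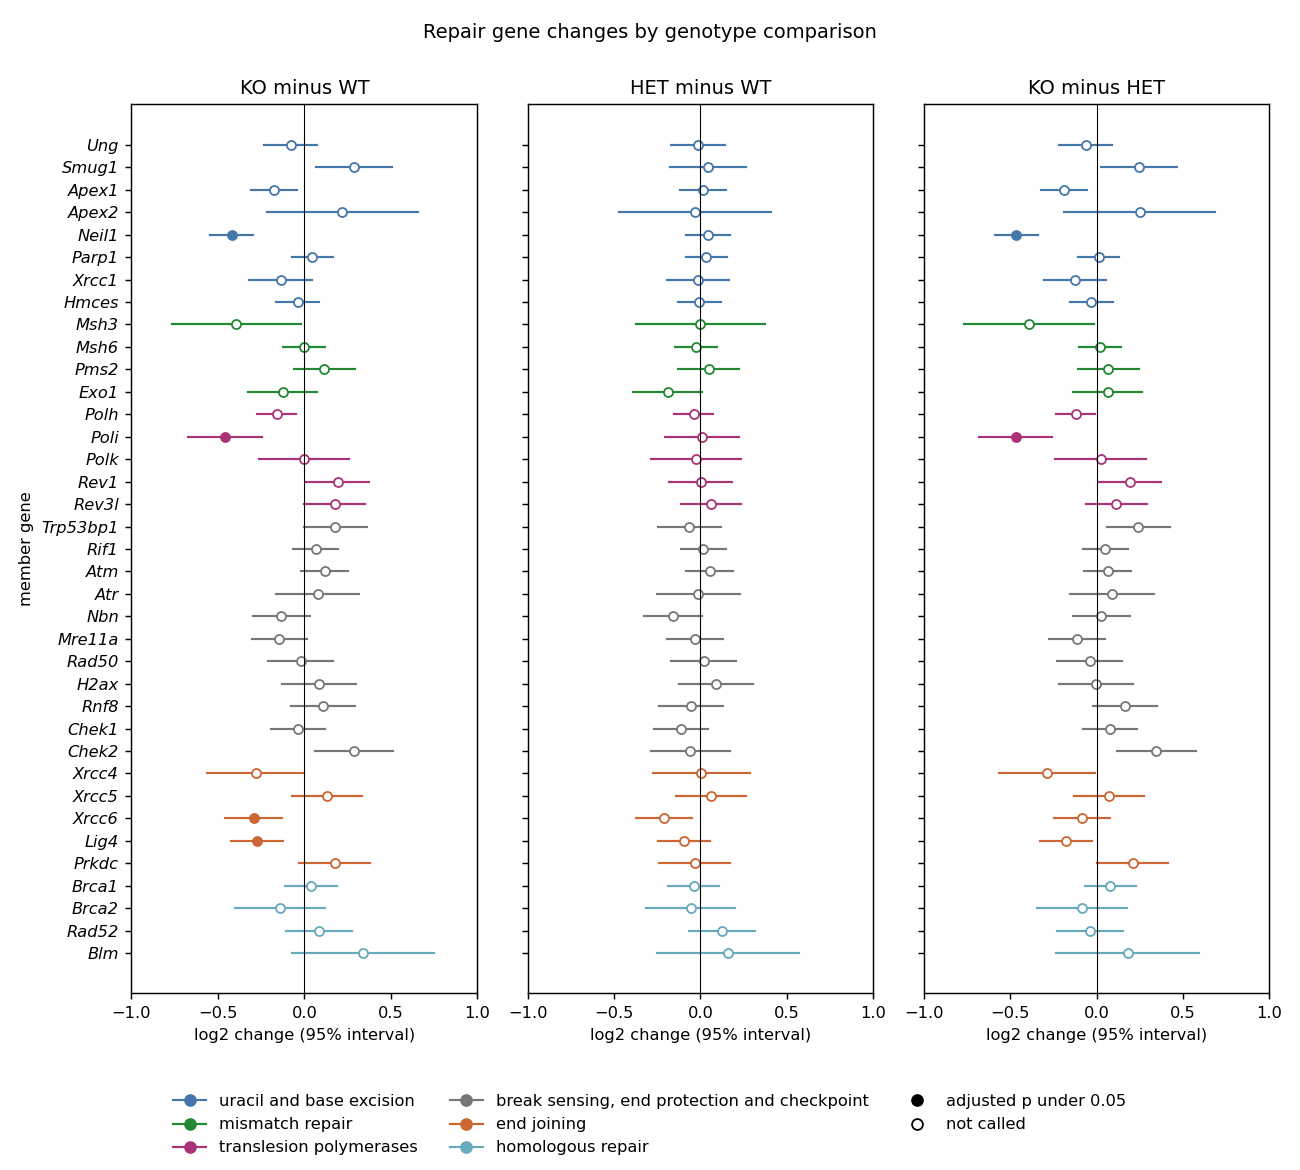
Log2 change of each of the 37 repair genes (rows, coloured by role) between genotypes in 3 panels, with its 95% limma interval; filled circles are changes with an adjusted p under 0.05. KO minus WT shows 4 filled circles, all left of 0, KO minus HET shows 2 (Neil1 and Poli), and HET minus WT shows 0.

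Among the 8 genes that act on uracil, abasic sites and single-strand gaps, 1 fell and 7 did not pass. The shares over all genes tested were 5.83% lower and 6.10% higher. Neil1, a glycosylase that removes oxidised bases, had signals of 5815, 6008 and 6069.6 in WT, 6366, 6159.8 and 5909 in HET, and 4812, 4194 and 4377 in KO. Every KO array lay below every WT and HET array, and WT and HET overlapped. Neil1 fell by 0.42 in KO vs WT (SE 0.06, adjusted p = 5.04e-04) and by 0.46 in KO vs HET (SE 0.06, adjusted p = 3.25e-04). The KO mean was 74.8% of the WT mean. Both calls held in all 22 alternative settings, including each fit without 1 array.

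The window of 250 bases before to 50 after the annotated start of Neil1 is shown because Neil1 had the smallest adjusted p of the 37. It comes from RefSeq (GRCm38.p6, chr9:57148256-57148555, minus strand, written 5′ to 3′ along the gene), and capitals mark a forkhead core motif, ATAAACA or its reverse complement TGTTTAT.
Neil1: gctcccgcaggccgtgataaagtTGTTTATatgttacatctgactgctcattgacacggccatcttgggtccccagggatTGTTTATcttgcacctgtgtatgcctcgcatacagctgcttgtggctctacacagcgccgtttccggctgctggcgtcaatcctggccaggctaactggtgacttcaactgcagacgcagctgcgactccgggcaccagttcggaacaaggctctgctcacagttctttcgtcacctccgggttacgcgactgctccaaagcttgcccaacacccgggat
The motif starts 227 and 170 bases before the annotated start. On either strand 4.60% of all 32851 promoter windows held ATAAACA and 3.65% held the other forkhead core searched, GTAAACA. Of the 30 windows of 28 repair genes used here, 2 held ATAAACA (Neil1 and Brca2) and 1 held GTAAACA (Brca2). ATAAACA was added to the search after the Neil1 window had been read, and a match of letters is a description, not a binding site.

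Smug1, which encodes a second uracil glycosylase, had signals of 434, 447 and 400.2 in WT, 449, 405 and 469.8 in HET, and 501, 546 and 519.8 in KO. Its KO arrays lay above all others, but the change of 0.29 (SE 0.10, adjusted p = 0.0858) did not pass. Apex1, the main endonuclease that cuts at abasic sites, had signals of 5105, 5199 and 5176 in WT, 4909, 5600.4 and 5146 in HET, and 4890.2, 4388 and 4452 in KO. Its KO arrays lay below all others, and the change of -0.17 (SE 0.06, adjusted p = 0.0840) did not pass. Among the alternative settings, limma called Apex1 lower with the mean of probe sets (-0.19, adjusted p = 0.0449). It was also called with median centring (-0.29, adjusted p = 0.00838), and in the other 20 of 22 settings it was not called. The main uracil glycosylase gene Ung changed by -0.08 (95% interval -0.23 to 0.08, adjusted p = 0.535), with 4496 ± 241 in WT and 4266 ± 441 in KO (SD, n = 3). Hmces, whose protein shields abasic sites, changed by -0.04 (95% interval -0.16 to 0.09), and the nick sensor gene Parp1 by 0.05 (95% interval -0.07 to 0.16). Xrcc1, a scaffold of single-strand repair (-0.14), and Apex2, a second abasic site endonuclease (0.22), had adjusted p-values of 0.328 and 0.549. The interval of Apex2 reached from -0.22 to 0.66, so these arrays leave a change of over 1.5-fold possible there.

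None of the 4 mismatch repair genes was called by limma, beside 11.9% of all genes tested. Of the 4, 1 (Msh3) had an unadjusted p under 0.05, beside 25.7% of all genes. Mismatch repair excises a stretch around the uracil and so spreads mutations to neighbouring bases. Msh6, the partner in the complex that recognises single mismatches, averaged 4548 ± 137 in WT and 4474 ± 188 in HET, and the KO mean was 4544 ± 219 (SD, n = 3). Its KO vs WT interval ran from -0.12 to 0.12, and it had the smallest spread of the 37 over the 9 arrays (coefficient of variation 3.62%). Msh3, the partner for larger loops, had signals of 1094, 968 and 872 in WT, 1043, 1055 and 836 in HET, and 1002, 715 and 568 in KO. KO replicate 1 lay within the WT range and the others below it, and the change of -0.39 (SE 0.17, adjusted p = 0.171) did not pass. Without KO replicate 1, Msh3 passed in limma vs WT (adjusted p = 0.0188) and vs HET (adjusted p = 0.0245). With median centring it passed vs WT (adjusted p = 0.0496), and in the other 20 of 22 settings Msh3 was not called vs WT. Its 4 probe sets ran from -0.50 to 0.51, with 0 called. Pms2, which encodes the endonuclease subunit, had signals of 1014, 914 and 945 in WT, 956, 946 and 1070.4 in HET, and 1070.5, 999 and 1040.3 in KO, with 0.11 as the KO vs WT change (adjusted p = 0.412). Exo1, the exonuclease of the pathway, changed by -0.13 (adjusted p = 0.432).

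Of the 5 polymerases that copy past damage, 1 fell and 4 did not pass, beside 5.83% of all genes lower and 6.10% higher. Poli encodes polymerase iota, an error-prone enzyme. Its signals were 858, 847 and 757 in WT, 846, 835 and 795 in HET, and 561, 677 and 557 in KO. All KO arrays lay below all WT and HET arrays. Poli fell by 0.46 in KO vs WT (SE 0.10, adjusted p = 0.00912), to 72.9% of the WT mean, and by 0.47 in KO vs HET (SE 0.10, adjusted p = 0.0107). Both calls held in all 22 alternative settings, with adjusted p up to 0.0422 and 0.0411.

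**Figure D2:**
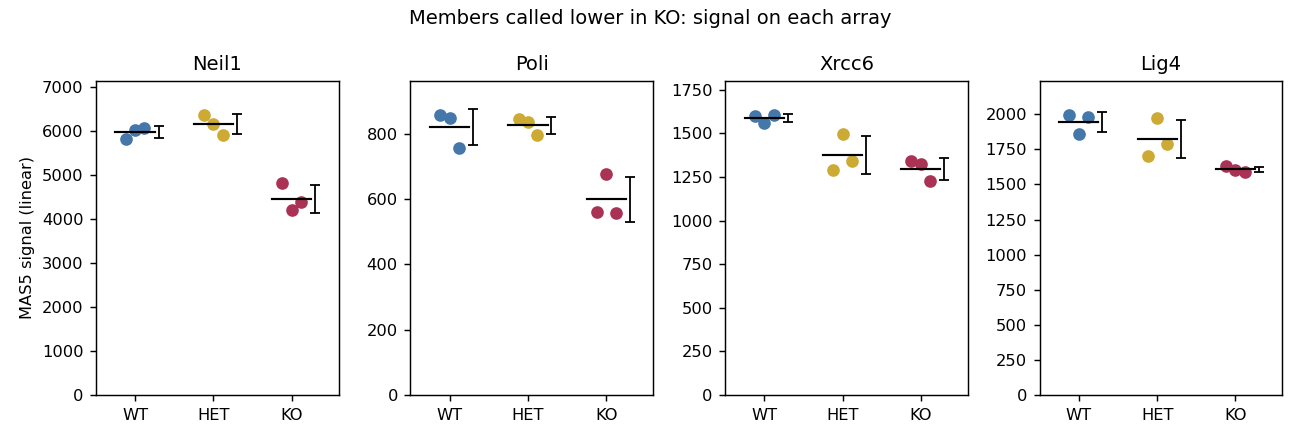
MAS5 signal (linear scale, from 0) on each of the 9 arrays for the 4 genes called lower in KO, with 3 arrays per genotype; horizontal lines are group means and bars show ± SD. All KO arrays of Neil1 and Poli lie below all WT and HET arrays, while the KO arrays of Xrcc6 overlap those of HET.

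Polh encodes polymerase eta, the main source of mutations at A and T bases in antibody genes, and its probe sets differed in size of change. The brightest, 1447837_x_at, had signals of 6125, 6122 and 6596 in WT, 5793, 6313 and 6243 in HET, and 5622, 5535 and 5696 in KO. Its change of -0.16 (SE 0.05, adjusted p = 0.0659) did not pass, although the KO arrays lay below all others. The second brightest, 1420988_at, had signals of 2172, 2341 and 2277 in WT, 2244, 2447 and 2273 in HET, and 1289.6, 1407 and 1529 in KO. In a fit over all 19479 probe sets above the filter, chosen after the data were seen, this probe set fell by 0.69 (SE 0.08, adjusted p = 1.22e-04), to 62.2% of the WT mean. The third, 1450075_at, went from 317 ± 25.7 in WT and 302 ± 9.71 in HET to 189 ± 19.0 in KO (SD, n = 3) and fell by 0.75 (SE 0.13, adjusted p = 0.00286). The log2 ratio of the second to the brightest probe set was -1.53 to -1.39 in WT, -1.46 to -1.37 in HET and -2.12 to -1.90 in KO. The KO minus WT difference of that ratio was -0.53, a description of probe sets singled out after their values were seen. The suffix _x_at marks probe sets whose probes may match other sequences, and which probe set follows the Polh transcript was not tested. Among the alternative settings, limma called Polh in KO vs WT without probe sets suffixed _x_at or _s_at (-0.69, adjusted p = 6.51e-05). It was also called with the mean of probe sets (-0.53, adjusted p = 3.06e-04) and with median centring (-0.28, adjusted p = 0.00568). In the other 19 of 22 settings it was not called.

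**Figure D3:**
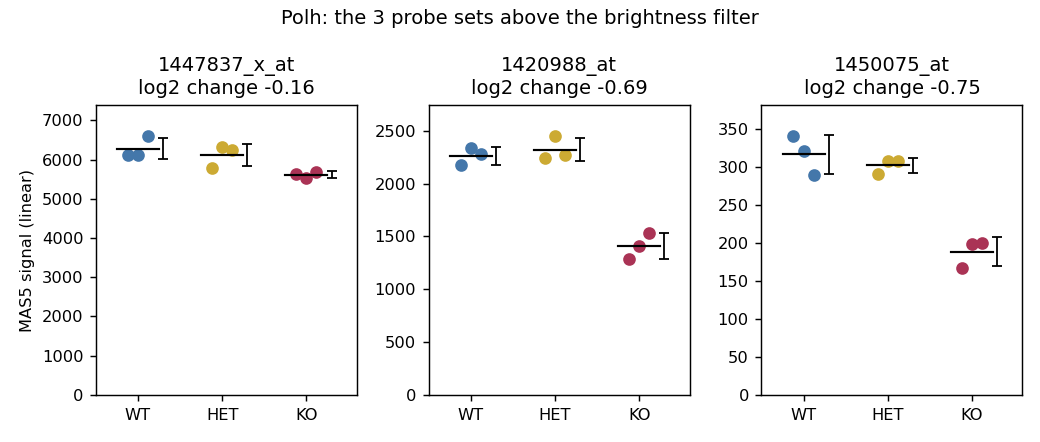
MAS5 signal (linear scale, from 0) of the 3 Polh probe sets above the brightness filter on each array, with group means (lines) and ± SD (bars). The KO arrays lie below all others in each panel, with log2 changes of -0.16, -0.69 and -0.75 from the brightest to the dimmest.

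The other bypass genes did not pass. Rev1, whose protein inserts C opposite abasic sites, had signals of 1704, 1965 and 1810.4 in WT, 1666, 1883 and 1938 in HET, and 2143, 1911 and 2209.6 in KO. Its KO and WT arrays overlapped at KO replicate 2 (change 0.19, adjusted p = 0.166). Rev3l, the catalytic subunit of polymerase zeta, changed by 0.17 (adjusted p = 0.199). Polk, polymerase kappa, changed by -0.002 (95% interval -0.26 to 0.26).

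End joining was the role group with the lowest median, -0.28 over 5 genes. Of the 5, 2 were called lower, 0 higher and 3 not called, beside 5.83% of all genes lower and 6.10% higher. Xrcc6 and Xrcc5 encode Ku70 and Ku80, the ring that caps broken ends, and Prkdc encodes the kinase that Ku recruits. Lig4 encodes the ligase that seals the break, and Xrcc4 its partner. Xrcc6 had signals of 1599, 1563 and 1608 in WT, 1291, 1499.6 and 1339.8 in HET, and 1344, 1322 and 1225 in KO. All HET and KO arrays lay below all WT arrays, and HET and KO overlapped. Xrcc6 fell by 0.29 in KO vs WT (SE 0.08, adjusted p = 0.0236), while its HET vs WT value of -0.21 (SE 0.08, adjusted p = 0.998) and its KO vs HET value of -0.08 (adjusted p = 0.543) did not pass. The Xrcc6 call was lost without any 1 of the WT arrays or without KO replicate 3 (adjusted p 0.0609 to 0.0809). With the mean of the 2 Xrcc6 probe sets the change was -0.18 (adjusted p = 0.359), as the dim second probe set went from 71.8 ± 9.72 in WT to 68.0 ± 7.64 in KO (SD, n = 3).

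Lig4 had signals of 1997, 1862 and 1979 in WT, 1705, 1972 and 1789 in HET, and 1628, 1603 and 1590.0 in KO. The KO arrays lay below all WT and HET arrays. Lig4 fell by 0.28 in KO vs WT (SE 0.07, adjusted p = 0.0223), to 82.6% of the WT mean, and the KO vs HET value of -0.18 did not pass (adjusted p = 0.140). The KO vs WT call was lost without WT replicate 1, WT replicate 3, KO replicate 2 or KO replicate 3 (adjusted p 0.0502 to 0.0792). Xrcc4 had signals of 205, 199 and 207 in WT, 205, 202 and 207 in HET, and 167, 178 and 157 in KO. The KO arrays lay below all others, but the change of -0.28 (SE 0.13, adjusted p = 0.192) did not pass. With eBayes without a trend, which uses 1 prior spread for dim and bright genes alike, the same difference had an adjusted p of 0.0280. Prkdc had signals of 1102, 1176 and 1211 in WT, 1048, 1116 and 1252 in HET, and 1274, 1472 and 1204 in KO, with 0.17 as the KO vs WT change (adjusted p = 0.268). Xrcc5 changed by 0.13 (95% interval -0.07 to 0.34), the opposite sign to its partner Xrcc6, and that change did not pass.

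The promoter windows of Xrcc6 and Lig4 are shown because both genes were called lower. They are from RefSeq (GRCm38.p6) and written 5′ to 3′ along the gene, Xrcc6 from chr15:82016119-82016418 (plus strand) and the upstream of both listed Lig4 starts from chr8:9977631-9977930 (minus strand). Capitals mark TTTCCCGC or its reverse GCGGGAAA, a form of the E2F motif found in many replication genes, and CCAAT or its reverse ATTGG.
Xrcc6: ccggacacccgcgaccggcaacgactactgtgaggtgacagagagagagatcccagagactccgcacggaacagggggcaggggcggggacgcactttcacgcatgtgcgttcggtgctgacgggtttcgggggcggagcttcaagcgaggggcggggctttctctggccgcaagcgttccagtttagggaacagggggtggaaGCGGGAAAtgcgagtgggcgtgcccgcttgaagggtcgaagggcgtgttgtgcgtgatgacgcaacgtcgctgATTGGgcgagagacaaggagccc
Lig4: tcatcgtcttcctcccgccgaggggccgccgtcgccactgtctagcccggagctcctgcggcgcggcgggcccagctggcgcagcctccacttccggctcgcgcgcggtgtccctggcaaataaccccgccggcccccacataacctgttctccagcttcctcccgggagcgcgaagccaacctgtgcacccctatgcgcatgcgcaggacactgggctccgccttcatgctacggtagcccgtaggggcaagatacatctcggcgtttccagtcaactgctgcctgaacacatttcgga
In Xrcc6 the E2F motif starts 46 bases before the annotated start, and neither Lig4 window held any of the 5 motifs searched. TTTCCCGC was in 4 of the 30 repair gene windows (Brca2, Chek2, Msh6 and Xrcc6) and in 1.07% of all windows. Its second form, TTTGGCGC, was in 1 of the 30 (Msh3) and in 0.514% of all, and CCAAT in 13 of the 30 and in 37.4% of all. Of the 5 genes with either E2F form, Xrcc6 fell in KO and the other 4 were not called. A match of letters is a description here too, not a binding site, and a link between motif and change was not tested. Windows of 9 of the 37 genes, among them the called gene Poli, were not used here.

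Of the 11 genes that sense breaks, protect ends or halt the cell cycle, limma called 0 in KO vs WT (11.9% of all genes). Their median change was 0.08, and 1 of them (Chek2) had an unadjusted p under 0.05 (25.7% of all genes). Chek2, a checkpoint kinase gene, had signals of 477, 471 and 443 in WT, 467, 437 and 433 in HET, and 501, 623 and 582 in KO. The KO arrays lay above all others, and the changes of 0.29 vs WT (SE 0.10, adjusted p = 0.0977) and 0.35 vs HET (SE 0.10, adjusted p = 0.0597) did not pass. Without KO replicate 1, the lowest of the KO arrays, both changes passed (adjusted p = 0.0481 and 0.0309). Trp53bp1 encodes 53BP1, which shields broken switch region ends from resection. Its signals were 3884, 4062 and 4254 in WT, 3452, 4141 and 4114 in HET, and 5102, 4535 and 4203 in KO. KO replicate 3 overlapped WT, and the change of 0.18 did not pass (adjusted p = 0.204). All 6 Trp53bp1 probe sets had higher means in KO, by 0.14 to 0.43, and 0 of them passed.

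Rif1, which acts with 53BP1, changed by 0.07 (95% interval -0.06 to 0.20). The kinase gene Atm, which starts the response to breaks, changed by 0.12 (95% interval -0.02 to 0.25). Atr, the kinase gene for stalled forks, changed by 0.08 on its brightest probe set (95% interval -0.17 to 0.32). Its second probe set had signals of 369, 350.1 and 314 in WT, 354, 349.9 and 394 in HET, and 430.1, 524 and 445 in KO. In the fit over all probe sets it rose by 0.43 (SE 0.12, adjusted p = 0.0410). The 3 genes of the break-binding complex, Mre11a (-0.14), Rad50 (-0.02) and Nbn (-0.13), had adjusted p-values of 0.245 to 0.912. The histone variant gene H2afx, listed on the array under its newer symbol H2ax, changed by 0.09 (adjusted p = 0.644), the ubiquitin ligase gene Rnf8 by 0.11 (adjusted p = 0.464) and the checkpoint kinase gene Chek1 by -0.04 (95% interval -0.19 to 0.12).

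None of the 4 homologous repair genes was called by limma (11.9% of all genes) or had an unadjusted p under 0.05 (25.7%). Their median change was 0.06. Homologous repair copies the sister chromatid and serves cells in S and G2 phase. Brca1, which promotes resection, averaged 2708 ± 130 in WT and 2635 ± 156 in HET, and the KO mean was 2785 ± 167 (SD, n = 3), with a KO vs WT interval of -0.11 to 0.19. Brca2, which loads the recombinase, read 1586, 1501 and 1649 in WT, 1439, 1428 and 1699 in HET, and 1552, 1637 and 1153 in KO. KO replicate 3 was the lowest of the 9 and the other KO arrays lay within the WT range (change -0.14, adjusted p = 0.505). Blm, a helicase that dissolves joint molecules, had signals of 828, 689.7 and 474 in WT, 737, 871 and 588 in HET, and 956, 758 and 758 in KO. Its change of 0.34 did not pass (SE 0.19, adjusted p = 0.290), and its interval of -0.07 to 0.75 is wide. Rad52, an annealing factor, changed by 0.08 (adjusted p = 0.615).

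Of the 33 genes not called in KO vs WT, 30 had a 95% interval that lay within a 1.5-fold change in either direction, and 9 within a 1.2-fold change. The exceptions at 1.5-fold were Apex2, Blm and Msh3. For 8 of the 33 the KO and WT arrays did not overlap, with Chek2, Rev3l, Rif1 and Smug1 higher and Apex1, Mre11a, Polh and Xrcc4 lower. With the 4 called genes, arrays did not overlap for 12 of 37, beside 29.7% of all genes tested (16.2% higher and 13.5% lower).

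**Figure D4:**
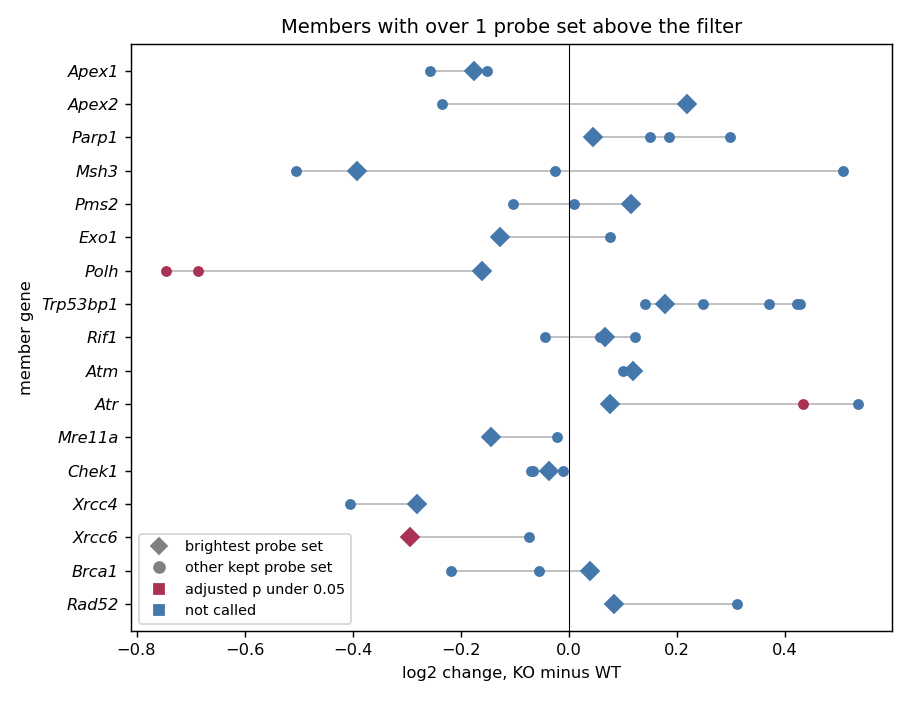
Log2 change KO minus WT of every probe set above the brightness filter for the 17 repair genes with more than 1 of them; diamonds are the brightest probe sets, circles the others, and red marks an adjusted p under 0.05 over all probe sets. In 11 of the 17 genes all probe sets have the same sign, and Polh, Atr and Xrcc6 hold both called and uncalled probe sets.

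In HET vs WT limma called 0 of the 37 genes, and 1 of 10331 genes over the whole table was higher (0.00968%). The targeted gene Foxo1, whose HET arrays all lay below the WT arrays, was itself not called (change -0.61, adjusted p = 0.919). A lack of calls in HET vs WT therefore does not show a lack of change. At an unadjusted p under 0.05, 1 of the 37 was lower (Xrcc6) and 0 were higher (2.70%), beside 4.18% of all genes. All 37 intervals lay within a 1.5-fold change and 22 within 1.2-fold. Neil1 (0.04, 95% interval -0.08 to 0.17) and Poli (0.01, 95% interval -0.20 to 0.22) were not called. The HET arrays lay apart from the WT arrays for 3 genes, all lower (Exo1, Nbn and Xrcc6), beside 9.82% of all genes (4.95% higher and 4.88% lower).

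In KO vs HET, 2 of the 37 were lower and 0 higher (5.41%), beside 4.43% and 4.56% of all genes tested, 8.99% in all. The 2 were Neil1 and Poli, whose HET and KO levels are given above. At an unadjusted p under 0.05, 7 were lower and 5 higher (32.4%), beside 23.2% of all genes (10.8% lower and 12.4% higher). Arrays did not overlap for 7 lower and 3 higher genes (Chek2, Smug1 and Trp53bp1), beside 13.1% and 14.5% of all genes, 27.7% in all. KO vs WT and KO vs HET share the KO arrays, so that their calls are not independent. Without KO replicate 1, 4 were lower and 1 higher.

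Other genes of the same pathways were read from 5 lists. Of 88 tested, 2 rose, 3 fell and 83 did not pass in KO vs WT (5.68%, beside 11.9% of all genes). Of 11 other base excision genes, 16 other end joining and end protection genes and 14 nucleotide excision genes, limma called 0, with 1, 2 and 1 at an unadjusted p under 0.05 (25.7% of all genes). Of 25 other homologous repair and Fanconi genes, Fanca, a subunit of the crosslink repair core complex, rose by 0.41 (SE 0.07, adjusted p = 0.00312). In the same list Rpa3, a subunit of the single-strand binding protein, fell by 0.23 (SE 0.07, adjusted p = 0.0350). Of 22 other mismatch and bypass genes, 1 rose and 2 fell. Pold2, a subunit of replicative polymerase delta, fell by 0.42 (SE 0.11, adjusted p = 0.0311), and Ube2a, a ubiquitin conjugating enzyme that acts on the sliding clamp, fell by 0.27 (SE 0.07, adjusted p = 0.0225). Primpol, a primase that restarts stalled forks, rose by 0.33 (SE 0.10, adjusted p = 0.0445).

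Genes that act beside repair were read the same way, against 5.83% of all genes called lower and 6.10% higher in KO vs WT. Of 24 cofactors of switch region transcription and of the deaminase, limma called 0, with 3 at an unadjusted p under 0.05 (25.7% of all genes) and a median change of 0.01. Of 29 DNA replication genes 2 fell, Pola1 by 0.36 and Dbf4 by 0.21 (adjusted p = 0.00190 and 0.0465), and the list's median was -0.06. Of 29 mitosis genes 8 fell, with a median of -0.14, and Ccna2, Cdc25b and Cenpa had the smallest adjusted p. Of 12 p53 target genes, 1 rose and 2 fell. Cdkn1a, the p53-induced cell cycle inhibitor, rose by 1.09 (SE 0.23, adjusted p = 0.00862), from 178 ± 12.5 to 397 ± 140.4 (SD, n = 3), while Btg2 fell by 0.61 and Trp53inp1 by 0.32 (adjusted p = 0.0182 and 0.00658). Of 8 antibody constant region genes listed, 3 had a probe set of a single symbol and were tested. Ighd, Ighg1, Ighg2b, Ighg2c and Ighe had none, so most switched classes were not read. The IgM gene Ighm was higher by 0.39 (SE 0.07, adjusted p = 0.00297), and the other 2, Igha and Ighg3, were not called. Of these 2, 1 changed by 0.23. The other changed by -0.36, with all KO arrays below all WT arrays and an unadjusted limma p under 0.05.

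**Figure D5:**
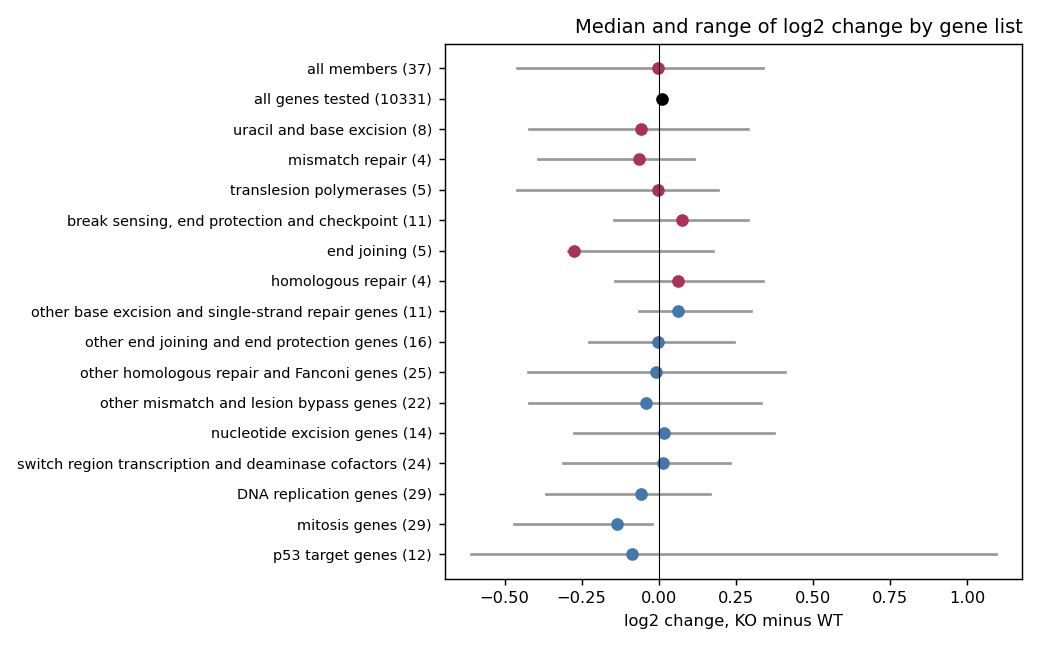
Median (point) and range (line) of the log2 change KO minus WT for the 37 repair genes, their role groups (red), other lists (blue) and all genes tested (black, median only), with the number of genes tested in brackets. End joining has the lowest median of the lists drawn (-0.28), and mitosis genes have no member above 0.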

How the data were processed

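GC B cell RNA of 9 mice (3 per genotype) was amplified and read on Affymetrix Mouse 430.2 arrays. Each deposited value is the intensity of a probe set on a given array, made by the authors with MAS5 and not on a log scale. The tool comes from the submitters' processing notes, and its version is not given in the sources used here. The 2% trimmed mean was 500.0 on every array, to 1 decimal. Of 45101 probe sets, 34945 had 1 gene symbol in the platform annotation, and 34741 of these matched RefSeq genes of GRCm38.p6 by Entrez identifier. Signals were analysed as log2(signal + 2.09), the offset being the 10th percentile, which slightly understates changes of dim genes. Probe sets at or above the array median on at least 3 of 9 arrays were kept, and the brightest per gene was tested, giving 10331 genes.

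A group-means model over all 9 arrays was fitted with limma 3.58.1 in R 4.3.3 (eBayes with trend), with Benjamini-Hochberg adjustment over all genes, two-sided. Intervals are limma's 95% intervals for single genes, not adjusted for the number of genes. The fit was also run on simulated data with known changes and independent noise, and the outcome is not reported here. Precision is limited by the number of arrays, and array signal holds no read depth. Alternatives were other offsets, scalings, filters, probe set rules, variance models, array weights, Xist signal as a block, the 2 groups alone and leaving out each array. Genes named with the signal on every array are those called and, per role group, the 2 others with the smallest adjusted p in KO vs WT. From each other list up to 3 called genes are named. The second Polh and Atr probe sets were singled out after their values were seen. Members and lists were chosen with earlier results of these data known. Probe set positions within genes were not analysed here.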

Additional observations from a re-analysis of the deposited data

How the results depend on the processing

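The number of repair genes lower in KO vs WT was 4, but 9 with each array centred on its median, and 2 to 5 when 1 array was left out. Median centring also turned the split over all genes from 630 higher and 602 lower to 397 and 1683. Over all settings the whole table had 380 to 642 genes higher and 369 to 1683 lower in KO vs WT. In KO vs HET, 2 were lower, but 5 with median centring, and 2 to 4 when 1 array was left out. The number higher was 0 in both comparisons. It came to 1 in KO vs HET when probe sets were averaged per gene (Chek2), to 1 in KO vs WT with each probe set tested on its own (Atr; added after the data were seen), and to 0 to 1 in each when 1 array was left out (Chek2 without KO replicate 1). In HET vs WT, 0 were called in all 22 alternative settings. Neil1 and Poli were called in all 22 alternative settings in both comparisons with KO, Lig4 in 18 and Xrcc6 in 17 of 22 in KO vs WT. Polh, not called in the main fit, was called lower in 3 of 22 in each comparison with KO. The end joining median moved between -0.39 (median centring) and -0.18 (mean of probe sets). No paired analysis was made because the labels give no batch, litter or pairing of animals. The few arrays leave changes under about 1.2-fold unresolved for most of these genes.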
